A study of Capra hircus with 6 samples.

Results

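Transcripts of 3 genes that carry the synuclein name were followed in the pineal gland of female goats (Capra hircus) before and at puberty. They are SNCB, which encodes beta-synuclein, SNCG, which encodes gamma-synuclein, and SNCAIP, which encodes synphilin-1. These 3 of the 28244 genes in the count table were chosen by gene symbol, with their values in the comparison of puberty with prepuberty already known. Those values are therefore a description and no independent test of these genes. The study sequenced RNA of untreated animals, with 3 libraries labelled prepuberty and 3 labelled puberty. Per the series description, puberty was judged by swelling of the vulva and by mature follicles seen in the ovaries. Age, breed, hour of collection and the number of animals behind each library are not given in the sources used here, so a p-value here reflects only how much these libraries varied, some of which may be technical.

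Synucleins are small, acid-rich proteins that are unfolded in solution and can bind curved membranes such as those of synaptic vesicles. Beta-synuclein is concentrated in presynaptic terminals of the brain and forms fibrils poorly. Gamma-synuclein is known from peripheral sensory and sympathetic neurons and retinal ganglion cells of rodents. Synphilin-1 is not a synuclein but a scaffold protein named for its link to them, and it is a substrate of ubiquitin ligases, among them SIAH1.

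The libraries held 18864451 to 20971065 counts, and 16588 genes passed the count filter and were tested with edgeR. All 3 genes passed it, SNCG with only 3 libraries of 10 or more counts. The tissue was checked by its markers: of 20 pinealocyte genes 19 had a symbol in the tables, and their summed level was 11183 to 12409 CPM (library-scaled counts) before puberty and 11979 to 13238 CPM at puberty. Fold changes are puberty over prepuberty, an SD is over the 3 libraries of a stage, and a gene is called at a Benjamini-Hochberg adjusted p under 0.05 over all tested genes. In bulk tissue, fewer cells of a type and less RNA per cell cannot be told apart.

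The 3 genes differed widely in level, and in direction. SNCB was abundant, most of all when levels were read per listed gene length, and was higher in all puberty libraries than in any prepuberty library. SNCAIP was present at a low level per length, with lower values in all puberty libraries. SNCG was close to the limit of detection, and its stages overlapped. Of the 3 genes, 1 was called, SNCB, where 11.5% of all tested genes were called, 5.85% as higher and 5.64% as lower. The stages of SNCB and SNCAIP did not overlap, as for 34.8% of all tested genes, 17.2% higher and 17.6% lower. Nothing is read from these counts, since the genes were chosen with this comparison known.

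**Figure D1:**
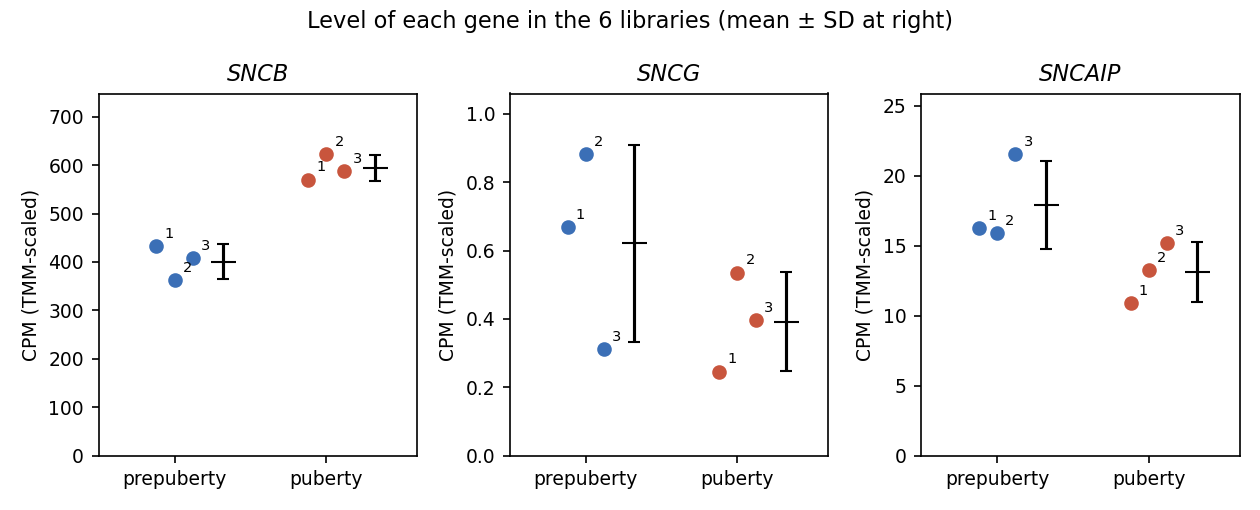
TMM-scaled CPM of SNCB, SNCG and SNCAIP in each library, on a linear axis that starts at 0 and differs between panels. Coloured points are libraries, numbered by replicate, and the black mark beside each stage is the mean ± SD of 3 libraries. The puberty points of SNCB lie above and those of SNCAIP below all prepuberty points, and the stages of SNCG overlap, with puberty replicate 1 below all prepuberty points.

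SNCB, on the plus strand of chromosome 7 (72505033 to 72512163, in the coordinates of the authors' tables, which name no build), had 8415, 7377 and 7864 counts in prepuberty replicates 1 to 3. In puberty it had 11611, 11642 and 11851. Scaled for library size, these were 432, 362 and 408 CPM in prepuberty and 569.9, 623 and 587 CPM in puberty. The lowest puberty library thus lay above the highest prepuberty library. Mean levels were 401 ± 35.9 CPM and 594 ± 27.2 CPM, a 1.48-fold difference (log2 fold change 0.57, SE 0.10, 95% interval 0.35 to 0.79). The edgeR adjusted p, given as a description, was 0.014. Replicates were close, with a coefficient of variation of 8.94% in prepuberty and 4.58% in puberty. SNCB alone took 0.0364% to 0.0446% of a prepuberty library and 0.0554% to 0.0614% of a puberty library.

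SNCAIP lies on the same strand of chromosome 7 (79114582 to 79283899), 6.6 Mb further on. Its counts were 316, 324 and 415 before puberty, and 222, 247 and 306 at puberty. Its levels were 16.2, 15.9 and 21.5 CPM in prepuberty, against 10.9, 13.2 and 15.2 CPM in puberty. The stages did not overlap, but the highest puberty library, replicate 3, and the lowest prepuberty library, replicate 2, lay less than 1 CPM apart. Means were 17.9 ± 3.17 CPM and 13.1 ± 2.14 CPM, with a log2 fold change of -0.45 (SE 0.18, 95% interval -0.85 to -0.05). The gene was not called (edgeR adjusted p = 0.13). Without prepuberty replicate 3, its highest library, the log2 fold change was -0.28 (edgeR adjusted p = 0.38).

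SNCG, on the minus strand of chromosome 28 (4145437 to 4149806), was counted 13, 18 and 6 times before puberty, and 5, 10 and 8 times at puberty. This is 0.668, 0.883 and 0.312 CPM against 0.245, 0.535 and 0.397 CPM. Prepuberty replicate 3 lay below 2 of the puberty libraries, and the stages overlapped. Means were 0.621 ± 0.289 CPM and 0.392 ± 0.145 CPM (log2 fold change -0.67, SE 0.54, 95% interval -1.88 to 0.55, edgeR adjusted p = 0.45). Summed over the libraries, 37 counts stood against 23, a ratio of 0.620 with an exact 95% interval of 0.352 to 1.07, which covers counting error only. A difference of stage was thus not detected for SNCG. The log2 fold change was -0.31 without prepuberty replicate 2 and -0.42 without puberty replicate 1.

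Levels of different genes were compared per listed gene length, with the authors' FPKM values (counts scaled for gene length and library size). SNCB stood at 1004, 840.3 and 949 FPKM in prepuberty and at 1325, 1452 and 1366 FPKM in puberty. It ranked 43rd, 70th and 58th of the 28244 genes in the prepuberty libraries and 40th, 37th and 35th in the puberty libraries. By counts, without regard to length, it ranked 315th, 404th and 347th, and 239th, 186th and 202nd. SNCAIP stood at 1.14 to 2.25 FPKM and SNCG at 0.60 to 2.16 FPKM over the 6 libraries. SNCB therefore exceeded SNCAIP by 421 to 592 times in prepuberty and by 861 to 1162 times in puberty. SNCAIP exceeded SNCG in 5 of the 6 libraries, the exception being prepuberty replicate 2, and these neighbours in the order did not differ beyond their spread. The listed lengths of SNCB (429 nt) and SNCG (408 nt) are multiples of 3, as for 65.2% of the protein-coding genes, and may be coding lengths. That of SNCAIP (9535 nt) is not, which limits this comparison between genes.

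**Figure D2:**
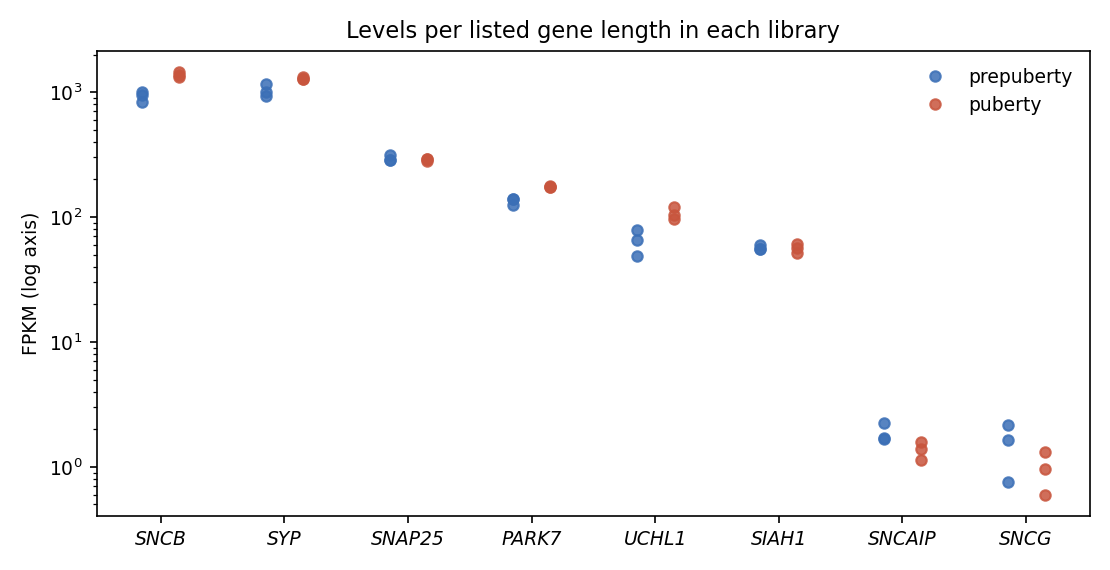
FPKM of SNCB, SNCAIP, SNCG and 5 genes for comparison in each library, on a log axis. Points are libraries, blue for prepuberty and red for puberty. SNCB lies at the height of SYP, which encodes the vesicle protein synaptophysin, and SNCAIP and SNCG lie together near 1 FPKM.

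Beside 39 genes of the presynaptic vesicle cycle, SNCB had the third-highest mean FPKM in prepuberty and the second-highest in puberty. CPLX3, which encodes a complexin of retinal ribbon synapses, stood above it at 1538 ± 148 FPKM in prepuberty and 1764 ± 223 FPKM in puberty. SYP stood at 1029 ± 117 and 1286 ± 24.1 FPKM. In prepuberty SYP was above SNCB in each of the 3 libraries, at 1157, 926 and 1004 FPKM. In puberty SNCB was above SYP in each, with SYP at 1278, 1267 and 1313 FPKM. The next gene, DNM1, which encodes the fission enzyme dynamin of vesicle recovery, was at 339 and 328 FPKM on average, between 295 and 361 FPKM in the 6 libraries. This order rests on the listed length of 429 nt: by mean CPM, which takes no account of length, 7 of the 39 genes stood above SNCB in prepuberty and 6 in puberty.

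Gene length moved with the fold changes of this comparison, and SNCB and SNCAIP lie towards opposite ends of it. Listed length and log2 fold change had a Spearman's rho of -0.28 over all tested genes, a description over genes that share the same 6 libraries. Among 907 genes of 345 to 534 nt, around the length of SNCB, the median log2 fold change was 0.30, and 19.1% were called higher and 0.772% lower. The 0.57 of SNCB lay above 80.7% of them. SNCG, of similar length, lay in the other direction, with 3.27% of the 855 genes around its length below it. Among 494 genes of 7628 to 11901 nt, around SNCAIP, the median was -0.24, and 0.607% were called higher and 23.5% lower. The -0.45 of SNCAIP lay above 24.5% of them. With offsets per library that removed a smooth trend on length, the log2 fold change of SNCB was 0.33 (SE 0.10, edgeR adjusted p = 0.077) and that of SNCAIP -0.21 (SE 0.17, edgeR adjusted p = 0.47). The call of SNCB was thus lost, and SNCG stood at -0.90 (edgeR adjusted p = 0.32).

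**Figure D3:**
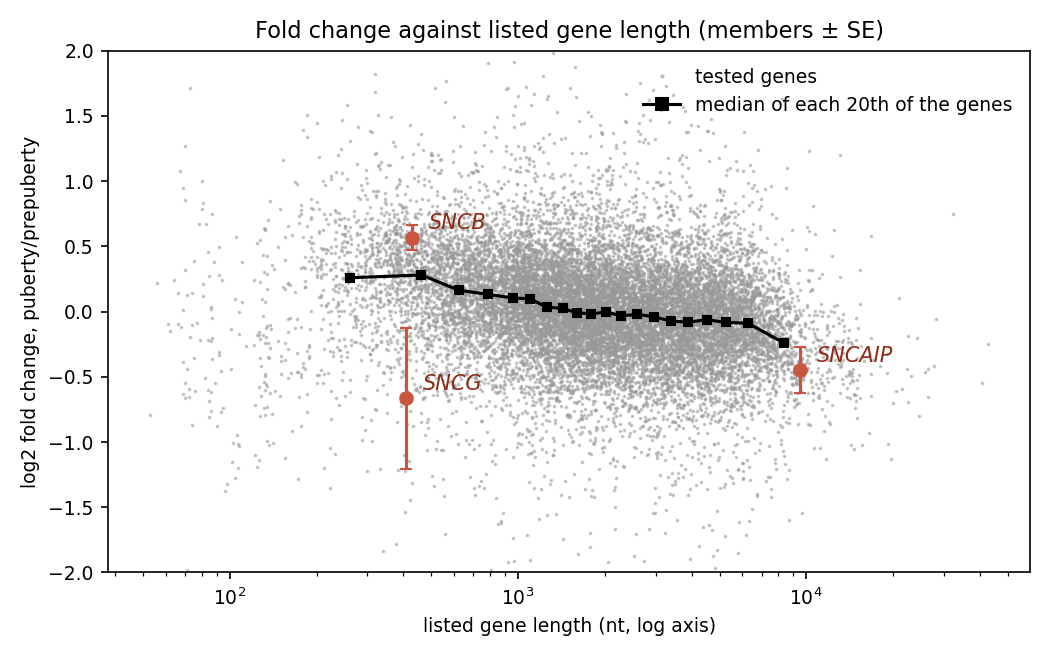
Log2 fold change of puberty over prepuberty against listed gene length on a log axis, for the tested genes (grey), the median of each 20th of them by length (black squares) and the 3 genes with their SE (red); 64 genes lie outside the vertical axis. SNCB lies above and SNCAIP below the medians at their lengths, each on the side to which those medians tend, while SNCG lies opposite to them.

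Over 17 alternatives of scaling, filter, tool, length correction, pairing, unit, threshold and left-out library, the log2 fold change of SNCB was positive in all 17, between 0.31 and 0.64, and past the threshold in 14. That of SNCAIP was negative in all 17, between -0.57 and -0.20, and past the threshold in 0. That of SNCG was negative in the 15 that gave it an adjusted p, between -0.97 and -0.31. The alternative threshold reused the main fit, so the directions, and the call of SNCB, could not change in it. SNCB lost its call with either length correction and without prepuberty replicate 1 (log2 fold change 0.64, edgeR adjusted p = 0.061). In that fit edgeR called 0 genes in all, with 3924 genes at an unadjusted p under 0.05.

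**Figure D4:**
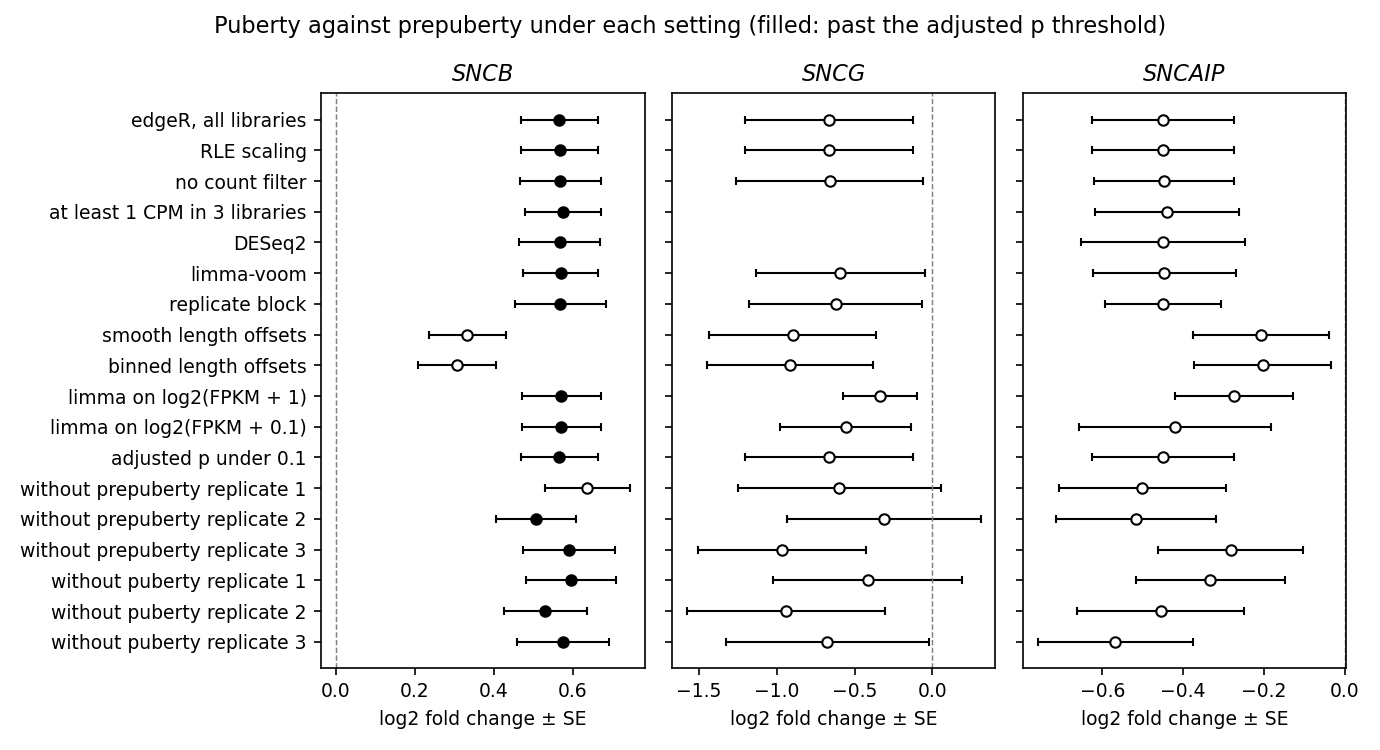
Log2 fold change of puberty over prepuberty with its SE for SNCB, SNCG and SNCAIP, 1 row per setting, with a horizontal axis of its own in each panel. Filled points are past the adjusted p threshold of that setting, and missing points had no adjusted p. SNCB lies right of 0 in each row and is filled in all but 3, and no point of SNCG or SNCAIP is filled.

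Around the genes, no other listed gene overlapped SNCB or SNCG, and within SNCAIP lies only a small RNA of 107 nt with 0 counts. The neighbours of SNCB are EIF4E1B, which was not tested, and GPRIN1, 19244 bp away, a gene of neurite outgrowth with mean levels of 46.3 and 46.8 CPM (log2 fold change 0.02, edgeR adjusted p = 0.95). SNCG lies between ADIRF, an adipogenesis regulator gene 6120 bp away, and the endothelial gene MMRN2, 1144 bp away on the other strand. ADIRF had 12.6, 11.8 and 16.1 CPM before puberty, and 24.4, 58.6 and 29.1 CPM at puberty, and was called (log2 fold change 1.47, SE 0.35, edgeR adjusted p = 0.045). It was not called with the smooth length offsets (edgeR adjusted p = 0.075) or without any 1 of the prepuberty libraries or puberty replicate 3 (0.063 to 0.135). MMRN2 had a log2 fold change of -0.13 (edgeR adjusted p = 0.75).

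The genes whose log2 CPM followed each gene most closely over the 6 libraries were ranked by Pearson's r among 8757 or 8758 genes of at least 10 CPM. For SNCB, 163 genes had r above 0.95. They were led by OSTF1 (r = 0.995), RPH3AL (0.995), a rabphilin relative of regulated secretion, the mitochondrial ribosome gene MRPS18A (0.994) and SPINDOC (0.994). For SNCAIP, 22 genes exceeded 0.95, led by the oxysterol-binding gene OSBPL11 (r = 0.999), CLUL1 (0.991), a clusterin relative of photoreceptors, the mismatch repair gene PMS2 (0.987) and MAP3K21 (0.987). With the stage means removed, r was 0.967 for SNCB with OSTF1 and 0.997 for SNCAIP with OSBPL11. For SNCG, with 5 to 18 counts, the leading genes were ZFP36L2, NRP1 and PDE4D (r = 0.979, 0.978 and 0.978) and ZNF335 (0.971). These values are the highest of all genes compared, over 6 shared libraries, and are a description.

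Genes for proteins that bind, modify or chaperone synucleins or synphilin-1 were read as a list, of which 23 of 33 were tested. Of these 4 rose, 1 fell and 18 were not called, with a median log2 fold change of 0.05 beside 0.01 for all tested genes. Of all tested genes, 5.85% were called higher and 5.64% lower, or 2.86% and 2.74% with the smooth length offsets. The same shares stand beside the lists that follow. UCHL1, a ubiquitin hydrolase abundant in neurons, had 147, 124 and 92.2 CPM before puberty, and 182, 225 and 196 CPM at puberty. The stages did not overlap, and UCHL1 rose 1.66-fold (log2 fold change 0.73, SE 0.17, edgeR adjusted p = 0.031). PARK7, which encodes the redox-sensitive protein DJ-1, had 224, 250.3 and 246 CPM before puberty, and 313, 311 and 308 CPM at puberty. It rose 1.29-fold (log2 fold change 0.37, SE 0.08, edgeR adjusted p = 0.027). RABAC1, a receptor of prenylated Rab proteins, rose 1.41-fold (adjusted p = 0.020), and SERF2, whose product speeds the aggregation of amyloid proteins, 1.49-fold (adjusted p = 0.022). MAP1B, a microtubule-associated protein of axons, fell 1.37-fold, from 1048 ± 74.8 to 764 ± 92.6 CPM (adjusted p = 0.037). SIAH1, whose product is a ubiquitin ligase with synphilin-1 as a substrate, was at 56.3 ± 2.28 and 55.6 ± 4.71 CPM (log2 fold change -0.02, 95% interval -0.23 to 0.19). Its relative SIAH2 had a log2 fold change of 0.10 (-0.14 to 0.34). With the smooth length offsets 3 of the list rose, RABAC1, PARK7 and UCHL1, and 0 fell. With 1 library left out, all 5 kept their direction, but UCHL1 lost its call each time (edgeR adjusted p from 0.053 to 0.091). PARK7 kept its call only without prepuberty replicate 2, MAP1B only without puberty replicate 1, RABAC1 without prepuberty replicate 2 or puberty replicate 3, and SERF2 also without puberty replicate 1.

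Of 22 tested genes of synuclein turnover, out of 27, 2 rose and 1 fell, with a median log2 fold change of -0.07. MMP9, a secreted metalloproteinase, rose 2.58-fold, with counts of 77, 77 and 51 before puberty and of 170, 143 and 219 at puberty (log2 fold change 1.37, SE 0.24, edgeR adjusted p = 0.015). STUB1, which encodes the chaperone-linked ligase CHIP, rose 1.27-fold, from 135 ± 2.27 to 172 ± 7.42 CPM (adjusted p = 0.028). The deubiquitinase gene USP9X fell 1.32-fold (adjusted p = 0.036). With the smooth length offsets 1 gene rose, MMP9, and 0 fell. MMP9 lost its call only without prepuberty replicate 1 (edgeR adjusted p = 0.061), STUB1 without any library but puberty replicate 3 (0.057 to 0.087) and USP9X without any library (0.062 to 0.10).

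Genes of inherited parkinsonism in humans, apart from those already listed, had 0 rises and 4 falls among 17 tested of 21, with a median log2 fold change of -0.13. The absence of rises depends on this division of the lists. Of genes also linked to parkinsonism that stand on the partner list, PARK7 and UCHL1 were called higher. LRRK2 (log2 fold change -0.54, edgeR adjusted p = 0.11) and PINK1 (-0.06, edgeR adjusted p = 0.76) were not called. Over all tested genes 5.85% were called higher and 5.64% lower. VPS13C, a lipid transfer protein of organelle contacts, fell 1.56-fold (edgeR adjusted p = 0.016) and the endosomal gene DNAJC13 1.36-fold (adjusted p = 0.025). The F-box gene FBXO7 fell 1.30-fold (adjusted p = 0.030) and SPG11, a gene of lysosome renewal, 1.24-fold (adjusted p = 0.044). The listed lengths of VPS13C, DNAJC13 and SPG11 are 11034, 6854 and 7299 nt, in the range where log2 fold changes were lower, and that of FBXO7 is 1572 nt. With the smooth length offsets only FBXO7 of this list was called, and the list median was -0.02. With 1 library left out, VPS13C lost its call without prepuberty replicate 1 or puberty replicate 2 (edgeR adjusted p = 0.062 and 0.054), and FBXO7 lost it each time (0.059 to 0.102). DNAJC13 kept it only without puberty replicate 3, and SPG11 only without prepuberty replicate 2.

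Among 38 tested genes of the presynaptic vesicle cycle, out of 43, 2 rose, 2 fell and 34 were not called (median log2 fold change -0.01). The priming factor UNC13B had 118, 121 and 134 CPM before puberty, and 87.5, 82.4 and 76.7 CPM at puberty. The stages did not overlap, and UNC13B fell 1.51-fold (log2 fold change -0.60, SE 0.09, edgeR adjusted p = 0.014), as did the active zone scaffold PCLO, 1.53-fold (adjusted p = 0.016). SH3GL2, which encodes the endocytic protein endophilin A1, rose 1.29-fold (adjusted p = 0.032) and the complexin gene CPLX4 1.44-fold (adjusted p = 0.040). SNAP25, the SNARE partner of the syntaxins, had a log2 fold change of -0.03 (95% interval -0.23 to 0.16), and SYP, at the level of SNCB, one of 0.32 (adjusted p = 0.092). With the smooth length offsets SH3GL2 rose and UNC13B and VAMP1 fell. UNC13B lost its call only without prepuberty replicate 1 (edgeR adjusted p = 0.061), whereas SH3GL2 lost it without any library (0.059 to 0.086). PCLO was also not called without prepuberty replicate 3 or puberty replicate 1 or 2, and CPLX4 without prepuberty replicate 2 or puberty replicate 1 or 2. Without prepuberty replicate 1, 0 genes of these 4 lists were called.

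**Figure D5:**
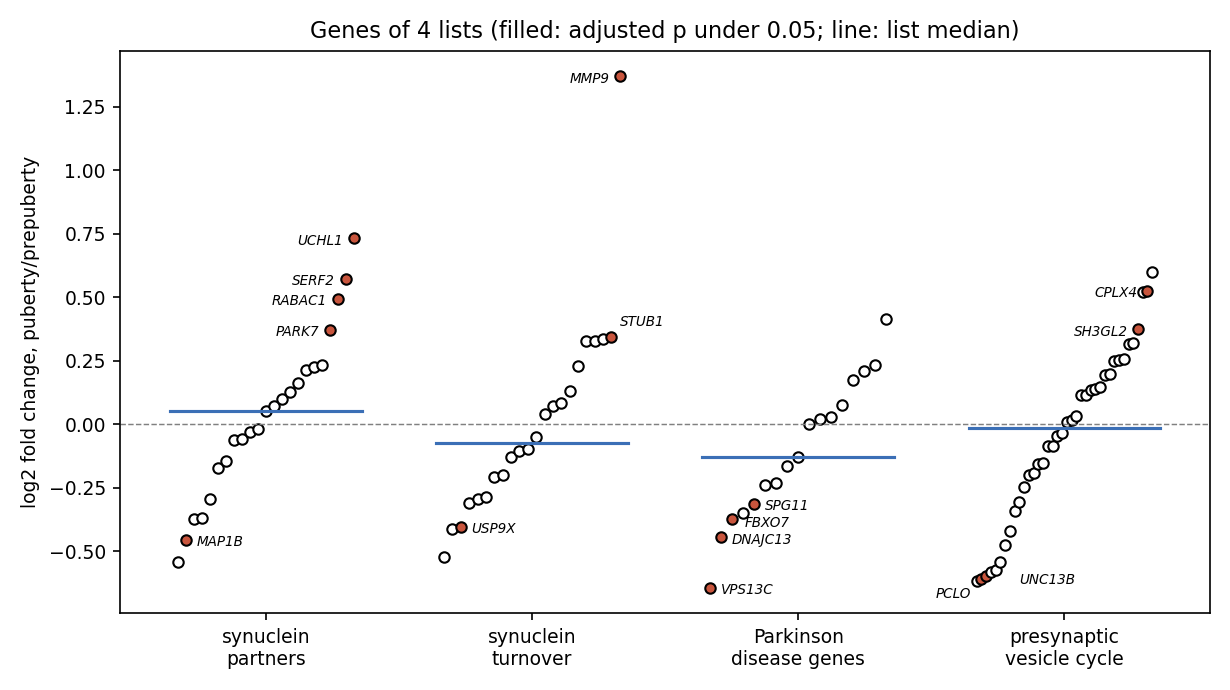
Log2 fold change of each tested gene of the 4 lists, ordered by value within a list. Filled points passed an adjusted p under 0.05 in edgeR and are named, and blue lines are list medians. The medians lie between -0.13 and 0.05, and called genes stand on both sides of 0 in 3 lists and below 0 in the list of inherited parkinsonism. PARK7 and UCHL1, also linked to inherited parkinsonism, stand above 0 in the partner list.

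Markers of cells in which the synuclein genes are known were read beside them. The 23 neuron markers, led by SLC17A7, ENO2 and MAP2, summed to 6746 to 7706 CPM in prepuberty and 7176 to 8185 CPM in puberty, which overlap. Of the 22 tested, UCHL1 rose and MAP2 fell. The neuron sum follows its most abundant genes: in prepuberty SLC17A7 averaged 2466 CPM and NEFL 461 CPM, against 2.17 CPM for RBFOX3 and 1.31 CPM for DCX. Which cells of the gland these transcripts came from was not tested. Markers of inhibitory neurons stood apart in prepuberty replicate 2, with GAD2 at 39.2 CPM against 2.68 to 5.75 CPM in the other libraries and GAD1 at 35.3 CPM against 2.84 to 4.81 CPM. That library also had the highest count of SNCG and the lowest level of SNCB, and without it the log2 fold change of SNCB was 0.51 (edgeR adjusted p = 0.035). Markers of habenular, retinal ganglion, sensory and autonomic neurons, the cells rich in SNCG, summed to 77.9 to 88.8 CPM in prepuberty and 48.9 to 69.9 CPM in puberty, without overlap. Of these 15 genes in the tables, led by CHRNA3, CHRNB4 and ISL1, 8 were under 1 CPM on average, and 0 of the 9 tested were called by edgeR. An unadjusted edgeR p under 0.05 was found for 2 of the 9, and for 4807 of all 16588 tested genes. CHRNA3, also on the pinealocyte list, had 35.8, 31.0 and 24.3 CPM before puberty, and 22.3, 19.6 and 24.5 CPM at puberty. CHRNB4 had 21.1, 20.8 and 13.8 CPM before puberty, and 14.5, 15.7 and 28.5 CPM at puberty. Taken singly, CHRNA3, CHRNB4 and ISL1 each overlapped between the stages. The adipocyte list, for cells that also express SNCG, had a higher sum in puberty, at 32.04 to 39.1 and 52.0 to 56.9 CPM. Of its 5 tested genes, CFD and CIDEA were called as higher. CFD averaged 6.97 CPM in prepuberty and 13.3 CPM in puberty, and CIDEA 14.1 and 25.4 CPM. LIPE, at 7.82 and 8.59 CPM, and PLIN1, at 5.09 and 5.65 CPM, were not called (edgeR adjusted p = 0.68 and 0.65). Of the 10 genes summed, 6 were under 1 CPM on average, among them ADIPOQ, also not called, and LEP at 0.

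Astrocyte markers summed to 4229 to 5840 CPM in prepuberty and 6253 to 6466 CPM in puberty, and myelin markers to 289 to 406 and 270 to 283 CPM, both without overlap. Microglial markers summed to 142 to 193 and 175 to 316 CPM, endothelial markers to 428 to 565 and 431 to 523 CPM, and fibroblast markers to 780.4 to 1177 and 1003 to 1229 CPM. Choroid plexus markers reached 10839 CPM in puberty replicate 2, against 673 to 947 CPM in prepuberty and 726 CPM at the lowest in puberty. Of these sums 449.7 to 572 CPM came from OTX2, which is also on the pinealocyte list, and TTR, the transthyretin gene of choroid plexus, was at 75.2 to 317 CPM in prepuberty, 464 and 206 CPM in puberty replicates 1 and 3, and 10082 CPM in puberty replicate 2. Without that library the log2 fold change of SNCB was 0.53 (edgeR adjusted p = 0.044). Of the tested markers, 2 of 9 astrocyte and 1 of 12 microglial ones were called higher. Of 8 fibroblast markers 1 was called higher and 1 lower, as were 1 and 1 of 19 pinealocyte markers. The myelin, endothelial and choroid plexus lists had 0 called. The part of other cell types in the values of SNCB, SNCG and SNCAIP was not tested.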

How the data were processed

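RNA of goat pineal glands was sequenced in 6 libraries, 3 per stage, grouped by sample title. Per the submitters' processing notes, tools were HISAT2 2.0.5 and featureCounts 1.5.0-p3, besides fastp, CASAVA 1.8 and DESeq2 1.20.0, with no roles given. These notes name human builds, whereas the identifiers are goat Ensembl ones. Strand setting and build are not given in the sources used here, and the NEBNext Ultra kit does not mark strand. The count table deposited by the authors holds whole-number read counts per gene, without normalization. The FPKM table deposited by the authors holds FPKM values per listed gene length.

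Counts were filtered with filterByExpr (minimum count 10), TMM-scaled and tested in R 4.3.3 by the robust quasi-likelihood F test of edgeR 4.0.16, without covariates, with Benjamini-Hochberg adjustment over 16588 genes. An SE was taken from the log2 fold change and its F statistic, and log2 CPM used a prior count of 2. The scripts were tested on simulated data. Length offsets were fitted per library, by lowess (span 0.3) or in 20 bins. DESeq2 1.42.0 and limma 3.58.1, on counts (voom) and on log2(FPKM + 1) or log2(FPKM + 0.1), were alternatives, and FPKM folds understate changes of low genes. The genes and lists were chosen with earlier results of these data known. Named were the 3 genes, SIAH1, UCHL1 and PARK7, neighbours, and the 4 closest genes by Pearson's r. Called genes were named for partners (at most 8) and for the turnover, parkinsonism, vesicle, neuron and adipocyte lists (at most 5 each). Called markers of the other cell types were only counted. SYP, CPLX3, DNM1, SNAP25, SIAH2, VAMP1, GAD1, GAD2, ADIPOQ, LRRK2, PINK1, LIPE and PLIN1 were added after their values were seen. Some genes of the lists are not reported here; they were left out after their values were seen, and the list counts do not include them.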

Additional observations from a re-analysis of the deposited data

How the results depend on the processing

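SNCB kept its direction under each of the 17 alternatives, among which the looser threshold reused the main fit. Its log2 fold change of 0.57 became 0.33 with smooth and 0.31 with binned length offsets (edgeR adjusted p = 0.077 and 0.097), and ran from 0.51 to 0.64 with 1 library left out, from -0.97 to -0.31 for SNCG and from -0.57 to -0.28 for SNCAIP. DESeq2 gave SNCG no adjusted p, and the filter of 1 CPM in 3 libraries removed it. Genes called higher and lower numbered 971 and 935. They were 366 and 354 with the replicate block, 475 and 455 with smooth and 443 and 461 with binned length offsets, and 1628 and 1617 at an adjusted p under 0.1. With 1 library left out they ran from 0 to 729 and from 0 to 540. The labels do not say whether replicate numbers pair the libraries. Same-numbered libraries had correlations of deviations from the stage means of 0.05, -0.10 and -0.10, which cannot decide it with 3 libraries per stage. With the replicate block SNCB stood at 0.57 (edgeR adjusted p = 0.046). Each left-out library lowered a count of calls by over 1.5 times, most without prepuberty replicate 1. Genes near 0 turned sign: with 1 library left out SIAH1 ran from -0.076 to 0.045, MMRN2 from -0.28 to 0.19 and GPRIN1 from -0.067 to 0.14, and ZNF335, at -0.07, became 0.11 with smooth and 0.18 with binned length offsets. At 5 to 18 counts, depth limits SNCG.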
